A study of Mus musculus with 4 samples.

Results

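The epidermal differentiation complex is a stretch of mouse chromosome 3 that holds most genes for the proteins of the cornified envelope, the protein shell of dead surface keratinocytes. Its members were taken here by gene symbol: Sprr, Lce and S100a genes with a number after the family name, and the single genes Flg, Flg2, Ivl, Lor, Rptn, Crnn, Hrnr, Tchh and Tchhl1. Probe sets with 1 gene symbol covered 43 of these genes among 18193 genes on the array, through 54 of 34945 probe sets. They were 9 Sprr genes, 15 Lce genes, 12 S100a genes and 7 others. The Sprr group included Sprr2j-ps, which is annotated as a pseudogene. Flg2 and Crnn were not analysed here.

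RNA came from mammary epithelial cells of virgin CD1 females 8 to 12 weeks old, sorted as lineage-negative, CD24-positive and CD29-high, a gate that enriches basal cells and mammary stem cells. In Matrigel, a gel of basement membrane proteins, the sorted cells formed colonies under medium with ITS supplement and 50 ng/ml EGF. The control group had the vehicle, a CHAPS detergent buffer, and the Wnt3A group had 200 ng/ml of purified Wnt3A protein throughout, and RNA was taken after 2 passages from colonies grown for 6 to 7 days. Each group had 2 Affymetrix arrays, named control 1, control 2, Wnt3A 1 and Wnt3A 2, and no genetic change is given for either group. Nothing in the labels states that arrays of 1 group are separate mice or cultures. The p-values therefore cover only the spread between these 4 samples, and that spread can be technical.

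Keratinocytes build the envelope in steps as they leave the basal layer. Involucrin and other scaffold proteins are laid under the membrane first, small proline-rich proteins (Sprr) act as cross-bridging proteins, loricrin and the late cornified envelope proteins (Lce) reinforce the shell, and transglutaminases link them covalently. Profilaggrin and its relatives hornerin, repetin and trichohyalin carry an S100-type calcium-binding domain fused to long repeats, and filaggrin gathers keratin filaments. The S100a genes encode small calcium-binding proteins with roles in many cell types, and S100a8 and S100a9 form calprotectin, an antimicrobial heterodimer of neutrophils and of activated epidermis. Mammary epithelium is a simple bilayered gland in which cornification is not part of the normal programme.

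Each deposited value is a log2 difference from the median of the 4 arrays for that probe set, so it shows which arrays are high or low for a gene and gives no absolute level. A gene is the mean of its probe sets. Over all 18193 genes the median difference between groups was 0.00, the median standard error was 0.15 log2 units, and Wnt3A 2 was at least 1 log2 unit above Wnt3A 1 for 1.37% of genes. The treatment check Axin2, a canonical Wnt target, differed by 0.82 ± 0.20 log2 units (SE) as the mean of 2 probe sets, and by 1.76 when only the probe sets in its highest signal band were used. Axin2 was at -0.27 and -0.59 in control 1 and control 2, and at 0.60 and 0.19 in Wnt3A 1 and Wnt3A 2. Procr differed by 2.75 ± 0.69, with controls at -1.87 and -0.66 and Wnt3A arrays at 0.66 and 2.31. Neither gene passed the test at an adjusted p under 0.05 (limma, adjusted p = 0.55 for both). By their highest probe set, all 9 basal markers examined had a median signal of log2 8 to 16, a band read from the precision of the stored numbers. So did 5 of 8 luminal markers and 9149 of all 18193 genes. Of 15 neutrophil and myeloid markers 2 reached that band, and Ptprc, Itgam and Itgb2 lay below log2 4.

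Genes of the complex were mostly higher with Wnt3A, and most of that difference came from 1 of the 2 Wnt3A arrays. The median difference over the 43 members was 0.55 log2 units, against 0.00 over all genes. The difference was positive for 33 members (76.7%, against 50.1% of all genes). Both Wnt3A arrays lay above both controls for 21 members (48.8%), where 17.0% of all genes did so, and below both controls for 2 members (4.65%), where 17.5% of all genes did. The difference was at least 1 log2 unit for 13 members, and for 1.01% of all genes. With both conditions together, there were 12 members (27.9%), against 0.901% of all genes. Counted by probe set, 25 of the 54 were separated higher, against 17.4% of all probe sets on the array. No member was called by limma at an adjusted p under 0.05, where 0% of all genes were called. The smallest adjusted p of a member was 0.30. Without adjustment 12 members had a p under 0.05, 11 higher and 1 lower with Wnt3A, where 3.55% of all genes were higher and 3.82% lower by that measure. All values of single genes below are therefore measured differences that did not pass the test.

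**Figure D1:**
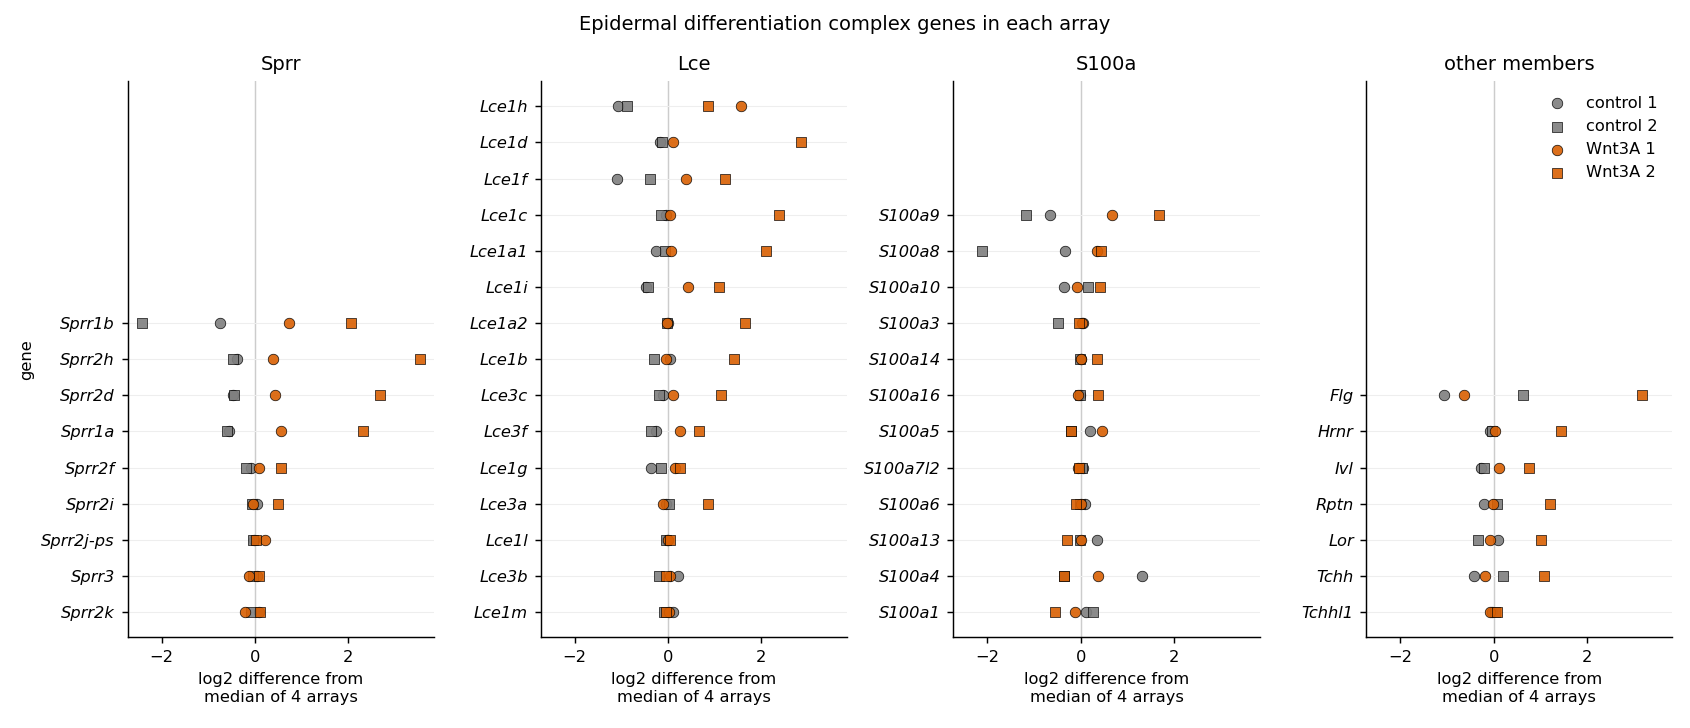
Log2 difference from the median of the 4 arrays (horizontal axis) for each of the 43 genes (rows), in 4 panels by subfamily. Grey points are the control arrays and orange points the Wnt3A arrays, with circles for number 1 and squares for number 2. The orange square (Wnt3A 2) lies furthest right for 32 of the 43 genes.

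Wnt3A 2 was the highest of the 4 arrays for 32 of the 43 members (74.4%), against 18.4% of all genes. It lay at least 1 log2 unit above Wnt3A 1 for 16 members. It was above both controls for 34 members (79.1%, against 27.7% of all genes), and Wnt3A 1 was above both controls for 22 members (51.2%, against 39.1% of all genes). The members had a median of -0.05 and -0.12 in the control arrays, of 0.03 in Wnt3A 1 and of 0.67 in Wnt3A 2. Without Wnt3A 2 the median difference was 0.09 log2 units, and without Wnt3A 1 it was 0.98.

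The Lce genes had a median difference of 0.82 log2 units, with 10 of 15 separated higher and 0 lower. The Sprr genes had a median of 0.45, with 6 of 9 separated higher and 0 lower, and their differences ran from -0.05 to 2.99. The Sprr median was 1.22, above that of Lce, when Sprr2i, a gene only in the lowest signal band, was left out, so the order of these medians rested on 1 gene. The 7 other members, which are Flg, Hrnr, Ivl, Rptn, Lor, Tchh and Tchhl1, had a median of 0.67, but the arrays separated for 2 of them. The S100a genes had a median of 0.14, with 3 of 12 separated higher and 2 lower. These are shares of 25.0% and 16.7%, beside 17.0% and 17.5% of all genes. Separation asked for no minimum size. The counts of the subfamilies therefore include Lce1l (0.06), Sprr2j-ps (0.16), S100a14 (0.19) and S100a7l2 (-0.07). Without Wnt3A 2 the medians were 0.24 for Lce, 0.26 for Sprr, 0.05 for the others and -0.01 for S100a. Without Wnt3A 1 they were 1.55, 0.68, 1.19 and 0.06. The S100a median was also -0.06 without control 2, so its sign depended on the arrays used. No test of the subfamilies against each other was made, since their members were chosen with results known.

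**Figure D2:**
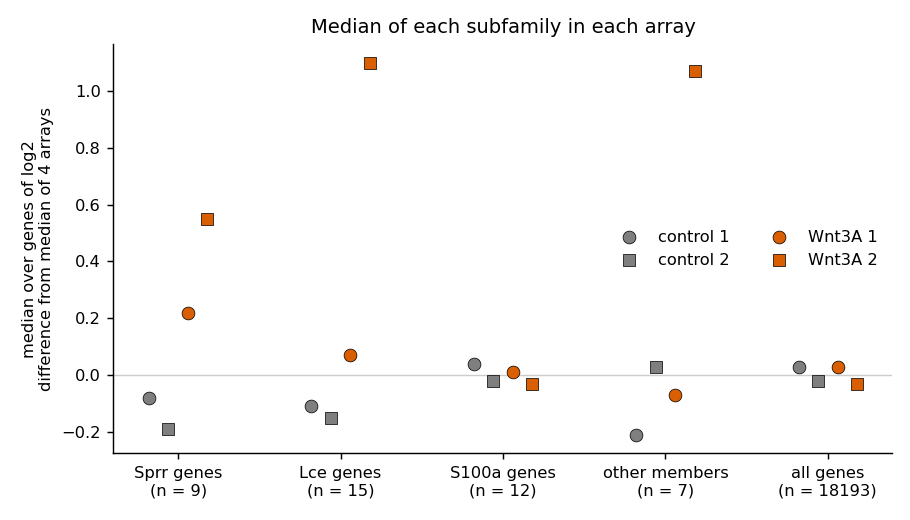
Median over the genes of each subfamily of the log2 difference from the median of the 4 arrays (vertical axis), 1 point per array, beside the same over all 18193 genes. Grey is control, orange is Wnt3A, circles are number 1 and squares number 2. Wnt3A 2 stands at 1.10 for Lce, 1.07 for the other members and 0.55 for Sprr, and near 0 for S100a and for all genes.

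The promoters of the complex differ by subfamily in the letters near the start of transcription. RefSeq promoter sequences of GRCm38.p6, 250 bases before to 50 after a gene's start, were found for 39 of the 43 members. Those of Lce1f, S100a10, S100a14 and Sprr2j-ps were not used here. The 200 bases before the start are shown for Sprr1b, the Sprr gene with the largest difference, for Sprr2h and Sprr2k, whose promoters are closely alike and whose differences are not, for Flg, which encodes profilaggrin, and for the Lce pair Lce1h and Lce1g. Capitals mark TGANTCA, the AP-1 motif, and TATAAA, the TATA box, found on either strand.
Sprr1b, chr3:92438780-92438979, minus strand: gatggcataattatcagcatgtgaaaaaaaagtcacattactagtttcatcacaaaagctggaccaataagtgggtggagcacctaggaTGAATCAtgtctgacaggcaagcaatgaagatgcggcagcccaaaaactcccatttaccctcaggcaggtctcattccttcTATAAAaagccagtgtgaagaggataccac
Sprr2h, chr3:92385485-92385684, plus strand: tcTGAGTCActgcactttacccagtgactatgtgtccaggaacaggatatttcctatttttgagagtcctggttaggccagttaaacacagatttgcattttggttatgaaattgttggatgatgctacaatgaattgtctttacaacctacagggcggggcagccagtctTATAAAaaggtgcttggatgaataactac
Sprr2k, chr3:92432382-92432581, plus strand: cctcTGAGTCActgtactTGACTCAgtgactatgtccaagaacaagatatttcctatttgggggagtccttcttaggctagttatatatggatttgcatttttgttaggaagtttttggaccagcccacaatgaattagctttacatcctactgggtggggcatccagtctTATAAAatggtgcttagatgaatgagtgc
Flg, chr3:93273346-93273545, plus strand: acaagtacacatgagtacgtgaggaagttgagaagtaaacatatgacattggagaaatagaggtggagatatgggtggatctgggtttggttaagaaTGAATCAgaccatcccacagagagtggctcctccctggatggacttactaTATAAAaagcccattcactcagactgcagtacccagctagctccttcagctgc
Lce1h, chr3:92765066-92765265, minus strand: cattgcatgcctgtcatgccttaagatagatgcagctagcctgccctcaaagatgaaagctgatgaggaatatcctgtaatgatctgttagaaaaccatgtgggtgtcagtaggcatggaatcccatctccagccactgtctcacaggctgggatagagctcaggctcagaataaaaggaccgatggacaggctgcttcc
Lce1g, chr3:92752339-92752538, minus strand: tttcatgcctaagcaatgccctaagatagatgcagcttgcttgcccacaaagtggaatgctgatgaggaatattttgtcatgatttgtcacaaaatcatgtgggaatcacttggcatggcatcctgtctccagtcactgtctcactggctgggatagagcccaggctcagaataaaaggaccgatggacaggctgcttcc

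An AP-1 motif was present in 7 of 8 Sprr promoters (87.5%), in 5 of 7 promoters of the other members (71.4%), in 2 of 10 S100a promoters and in 0 of 14 Lce promoters. Over all 27025 genes of the promoter table the share was 8.97%. Among Sprr genes the one without it was Sprr3. In the 5 Sprr2 promoters the motif began 182 to 198 bases before the start, and Sprr2k held 2 of them, at 182 and 196. It began 111 bases before the start in Sprr1b, and 116 and 146 bases before it in Sprr1a. In Lor it began 48 bases before the start, in Rptn 96, in Flg 103 and in Ivl 116. TATAAA, a motif added after the values were seen, was present in 8 of 8 Sprr promoters and 2 of 14 Lce promoters (14.3%), against 15.7% of all genes. On the strand of the gene and beginning 40 to 20 bases before the start it occurred in 16 of the 39 members (41.0%) and in 2.41% of all genes.

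The TCF/LEF motif CTTTGAT, the sequence bound by the DNA-binding partners of beta-catenin, was found in 1 of the 39 promoters (2.56%, S100a3), against 4.29% of all genes. The grainyhead-like motif AACNNGTT was found in 3 (7.69%), against 4.77%. Motif searches covered both strands, a gene with several listed promoters counted once if any of them matched and the letters of different motifs, such as TCF/LEF and AP-1, can overlap. An AP-1 motif was present in 5 of the 12 promoters of members that differed by at least 1 log2 unit (41.7%) and in 9 of the 27 others (33.3%).

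**Figure D3:**
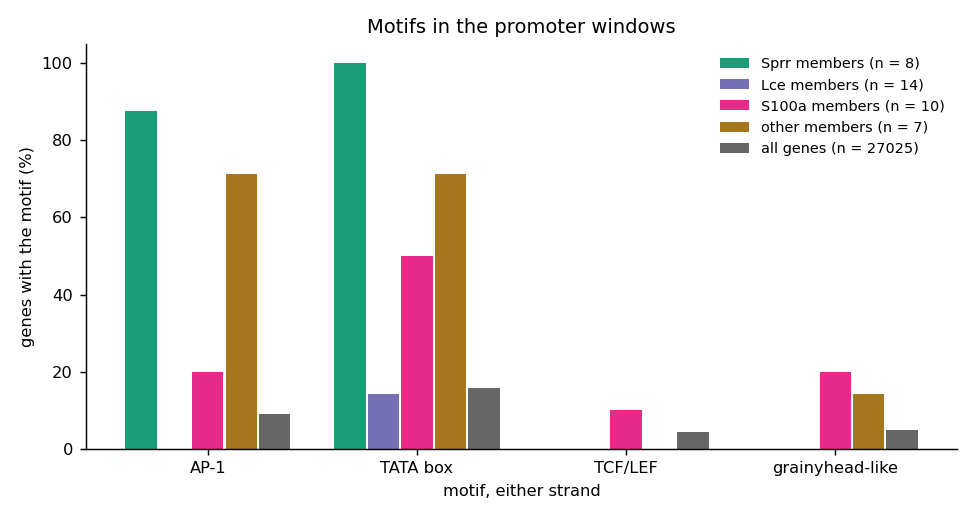
Share of genes (vertical axis, percent) whose promoter window of 300 bases holds each of 4 motifs on either strand, for the 4 subfamilies and for all 27025 genes of the promoter table. The AP-1 bar stands at 87.5% for Sprr and 71.4% for the other members, has no height for Lce, and is 8.97% for all genes.

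Promoters of the Lce1 and Sprr2 genes resembled each other more than promoters of different subfamilies did. In global alignments of 300 bases identity ran from 60.7% to 86.3% over 45 pairs of Lce1 promoters and had a median of 70.6% over 10 pairs of Sprr2 promoters, against a median of 59.7% over 556 pairs from different subfamilies. Over 45 pairs of S100a promoters the median was 57.7%. The highest was for Lce1g and Lce1h, printed above. Lce1h differed by 2.19 ± 0.26 log2 units between groups and Lce1g by 0.46 ± 0.14. The Sprr2h and Sprr2k promoters were 82.3% identical, and both hold the AP-1 motif and TATAAA. Sprr2h differed by 2.38 ± 1.05 and Sprr2k by -0.05 ± 0.16. Without Wnt3A 2 these were 0.81 and -0.21. Lce1h and Sprr2h were each read only through a probe set of a type shared by related transcripts. Their differences may therefore include signal from related genes.

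Sprr1b and Sprr1a encode the small proline-rich proteins of stratified epithelia and of stressed epidermis. Sprr1b was at -0.74 and -2.43 in control 1 and control 2 and at 0.74 and 2.06 in Wnt3A 1 and Wnt3A 2. The groups did not overlap, control 2 lay well below control 1, and the difference was 2.99 ± 0.72 log2 units, 7.92-fold (limma, adjusted p = 0.55). Sprr1a was at -0.55 and -0.59 in the controls and at 0.55 and 2.31 with Wnt3A. Its controls were close together and its difference was 2.00 ± 0.60 (limma, adjusted p = 0.61). With Wnt3A 1 as the sole treated array the differences were 2.33 for Sprr1b and 1.11 for Sprr1a.

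The Sprr2 genes, a tandem array of near-copies, ran from differences above 2 log2 units to differences near 0. Sprr2h was at -0.38 and -0.47 in the controls and at 0.38 and 3.53 with Wnt3A. Sprr2d was at -0.47 and -0.44 in the controls and at 0.44 and 2.67 with Wnt3A, a difference of 2.01 ± 0.75. In both genes the groups separated, and Wnt3A 2 was more than 2 log2 units above Wnt3A 1. Without Wnt3A 2 they differed by 0.81 and 0.90. Sprr2f differed by 0.45 ± 0.20, with controls at -0.08 and -0.19 and Wnt3A arrays at 0.08 and 0.55. Sprr2i, Sprr2j-ps and Sprr2k had differences between -0.05 and 0.23. Sprr3, which encodes a small proline-rich protein of the oesophagus and other wet epithelia, was at 0.04, -0.04, -0.13 and 0.08 in control 1, control 2, Wnt3A 1 and Wnt3A 2, with overlapping groups. The Sprr2h probe set is of a type shared by related transcripts, so its value cannot be assigned to that gene with certainty. The Sprr2a genes were read by 3 probe sets that name several genes and were left out of the counts. These differed by 0.09, 1.00 and 1.02, and in each the groups overlapped.

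The Lce1 genes, late envelope proteins of normal epidermis, had a median difference of 1.22 log2 units over 11 members, and the 4 Lce3 genes, which are known for induction after barrier injury, one of 0.57. Lce1h was at -1.06 and -0.87 in the controls and at 1.57 and 0.87 with Wnt3A, with Wnt3A 1 the higher. Its difference was 2.19 ± 0.26 (limma, adjusted p = 0.30), the smallest adjusted p among the members, and it was 2.54 with Wnt3A 1 alone and 1.84 with Wnt3A 2 alone. Lce1i was at -0.47 and -0.43 in the controls and at 0.43 and 1.10 with Wnt3A, a difference of 1.22 ± 0.25 (limma, adjusted p = 0.48). Lce1f was at -1.08 and -0.38 in the controls and at 0.38 and 1.23 with Wnt3A, a difference of 1.53 ± 0.38. Its 2 probe sets both separated the groups, with differences of 0.41 and 2.64, and the first of these had a median signal below log2 4.

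A second set of Lce1 genes was high in Wnt3A 2 and close to the controls in Wnt3A 1. Lce1d was at -0.16 and -0.12 in the controls and at 0.12 and 2.86 with Wnt3A. Lce1c, whose probe set had a median signal below log2 4, was at -0.05 and -0.14 in the controls and at 0.05 and 2.39 with Wnt3A. Lce1a1 was at -0.26 and -0.07 in the controls and at 0.07 and 2.11 with Wnt3A. These 3 genes separated by group, yet the margin between the lowest Wnt3A array and the highest control was small beside the distance between the Wnt3A arrays. Their differences of 1.63, 1.31 and 1.26 became 0.26, 0.14 and 0.24 without Wnt3A 2. Lce1a2 and Lce1b, next to Lce1a1 on the chromosome, had Wnt3A 2 at 1.66 and 1.42 and Wnt3A 1 at -0.02 and -0.04, and their groups overlapped.

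Among Lce3 genes, Lce3f was at -0.26 and -0.36 in the controls and at 0.26 and 0.67 with Wnt3A, a difference of 0.77 ± 0.18 (limma, adjusted p = 0.52). Lce3c also differed by 0.77, with a standard error of 0.36 and with Wnt3A 1 at 0.11 and Wnt3A 2 at 1.14. Lce3a was at 0.86 in Wnt3A 2 and between -0.10 and 0.03 in the other 3 arrays. Lce3b, Lce1l and Lce1m had differences between -0.02 and 0.06, and all 4 of their arrays lay within 0.21 of the median. In all, 8 S100a, Sprr and Lce genes were read through shared probe sets alone, 5 with a difference of 1 log2 unit or more, so values of Lce1h, Lce1d, Lce1i, Lce3c, Sprr2h and S100a8 may include signal from related genes.

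The genes for profilaggrin, loricrin, involucrin and the fused S100-type proteins other than Tchhl1 had their highest value in Wnt3A 2 by a wide margin. Flg was at -1.07 and 0.63 in the controls and at -0.63 and 3.18 with Wnt3A. Control 2 lay above Wnt3A 1, the groups overlapped, and the difference of 1.49 ± 1.39 was -0.41 without Wnt3A 2 and 3.40 without Wnt3A 1. Hrnr, the hornerin gene, was at -0.09 and -0.03 in the controls and at 0.03 and 1.45 with Wnt3A. Tchh, which encodes trichohyalin of hair follicle and tongue, was at -0.42 and 0.19 in the controls and at -0.19 and 1.07 with Wnt3A. Of these 3 genes Hrnr alone separated by group, by a margin of less than 0.1 log2 units, and its probe set had a median signal below log2 4.

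Lor, the loricrin gene, was at 0.10 and -0.33 in the controls and at -0.07 and 1.02 with Wnt3A, a difference of 0.59 ± 0.40 with overlapping groups. Its 3 probe sets differed by 0.09, 0.46 and 1.23. Rptn, the repetin gene, was at -0.21 and 0.06 in the controls and at -0.01 and 1.20 with Wnt3A. The first of its probe sets reached 3.67 in Wnt3A 2, and the other 2 did not exceed 0.16 in any array. Ivl, the involucrin gene and the earliest of these envelope markers, was at -0.27 and -0.20 in the controls and at 0.12 and 0.75 with Wnt3A. Its groups separated, with a difference of 0.67 ± 0.24 (limma, adjusted p = 0.65), carried by 1 probe set at 1.25 and not by the other at 0.10. Tchhl1 differed by -0.01.

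**Figure D4:**
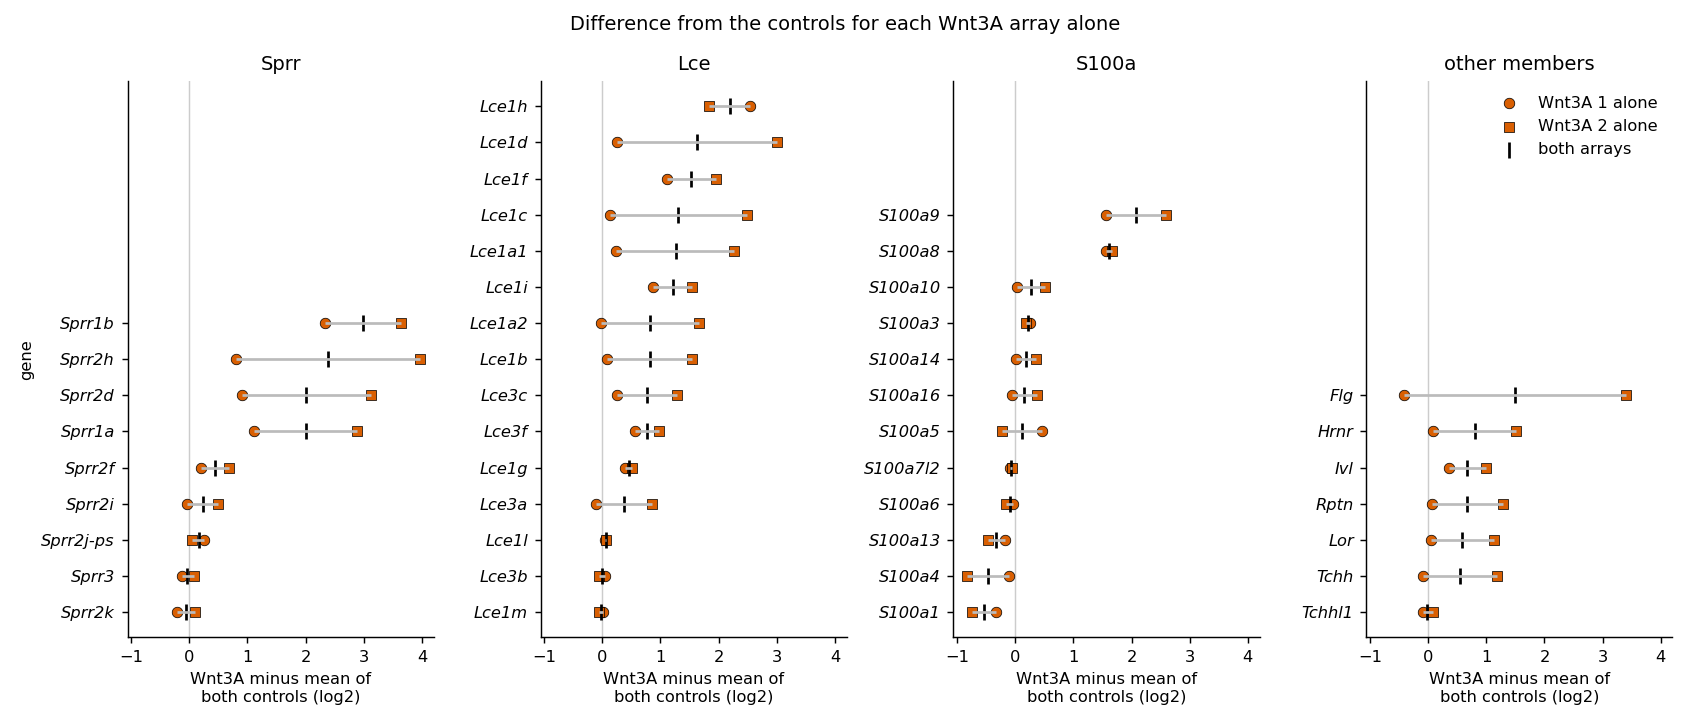
Difference from the mean of both controls (horizontal axis, log2) for Wnt3A 1 alone (circles), Wnt3A 2 alone (squares) and both (vertical ticks), for each member (rows) in 4 panels by subfamily. Long grey lines mark genes whose Wnt3A arrays disagree, such as Flg at -0.41 and 3.40. Short ones mark genes whose Wnt3A arrays lie close together, such as S100a8 and Lce1g.

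Used alone, Wnt3A 1 was at least 1 log2 unit above the controls for 6 members, and Wnt3A 2 for 20. The 6 were Lce1h, Sprr1b, S100a8, S100a9, Sprr1a and Lce1f. The sign of the difference changed without Wnt3A 2 for 5 of the members that differed by at least 0.2 log2 units, namely Flg, Lce3a, Tchh, Sprr2i and Lce1a2. The shares of all genes for these counts were not computed.

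S100a8 and S100a9 had the largest differences among S100a genes. S100a9 was at -0.66 and -1.17 in the controls and at 0.66 and 1.67 with Wnt3A, a difference of 2.08 ± 0.39, 4.23-fold (limma, adjusted p = 0.46). S100a8 was at -0.34 and -2.12 in the controls and at 0.34 and 0.43 with Wnt3A, a difference of 1.61 ± 0.60 that was 0.73 without control 2. In both genes the groups did not overlap, and control 2 was the lowest array. Neutrophils also carry much of both transcripts. The sort left out CD45-positive cells, which include neutrophils, before the 2 passages in Matrigel, and 15 neutrophil and myeloid markers were examined in the arrays. Their median difference was 0.02 log2 units. Of these markers 1 was separated higher (6.67%) and 2 lower (13.3%), beside 17.0% and 17.5% of all genes. Their median was 0.09, -0.07, 0.07 and -0.09 in control 1, control 2, Wnt3A 1 and Wnt3A 2. In bulk samples, fewer cells of a type and less RNA per cell cannot be told apart. Whether neutrophils added to the S100a8 and S100a9 values was not tested.

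The 10 other S100a genes had a median difference of 0.02. S100a1 was the member with the largest negative difference, at 0.12 and 0.27 in the controls and at -0.12 and -0.55 with Wnt3A (-0.53 ± 0.19; limma, adjusted p = 0.65), and both of its probe sets separated the groups. S100a13, its neighbour, differed by -0.32 ± 0.19 with overlapping groups. S100a4, a gene of fibroblasts and motile cells, was at 1.30 in control 1 and at 0.36, -0.36 and -0.37 in Wnt3A 1, Wnt3A 2 and control 2. Its difference of -0.46 ± 0.61 was 0.37 without control 1. S100a10, the annexin A2 partner, and S100a14 and S100a6, which simple and stratified epithelia both express, differed by 0.28, 0.19 and -0.09. By their highest probe set, all 3 had a median signal in the band of log2 8 to 16. S100a10 also had a probe set in the band of log2 4 to 8, with overlapping groups.

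In chromosomal order the first 8 members, S100a1 to S100a6, differed by -0.53 to 0.22. S100a8 and S100a9 followed, then S100a7l2 at -0.07 and Lor. Within the Sprr block, Sprr2d, Sprr2h, Sprr1b and Sprr1a had differences of 2.00 or more, with Sprr2f, Sprr2i, Sprr2j-ps, Sprr2k and Sprr3 lying between them. In the Lce block, the run from Lce1a1 to Lce1i held 9 consecutive members, all with differences of at least 0.46. There are 6 measured genes that lie between the outermost members without belonging to these families. Of these, Prr9, a proline-rich gene beside Lor, differed by 2.43 ± 0.42, with controls at -0.87 and -2.07 and Wnt3A arrays at 0.87 and 1.05. Crct1 and Kprp, both cornification genes and both with overlapping groups, differed by 1.54 and 0.87. Without Wnt3A 2 these were 0.33 and -0.05. Lelp1, Smcp and 2310050C09Rik lay between -0.09 and 0.03.

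**Figure D5:**
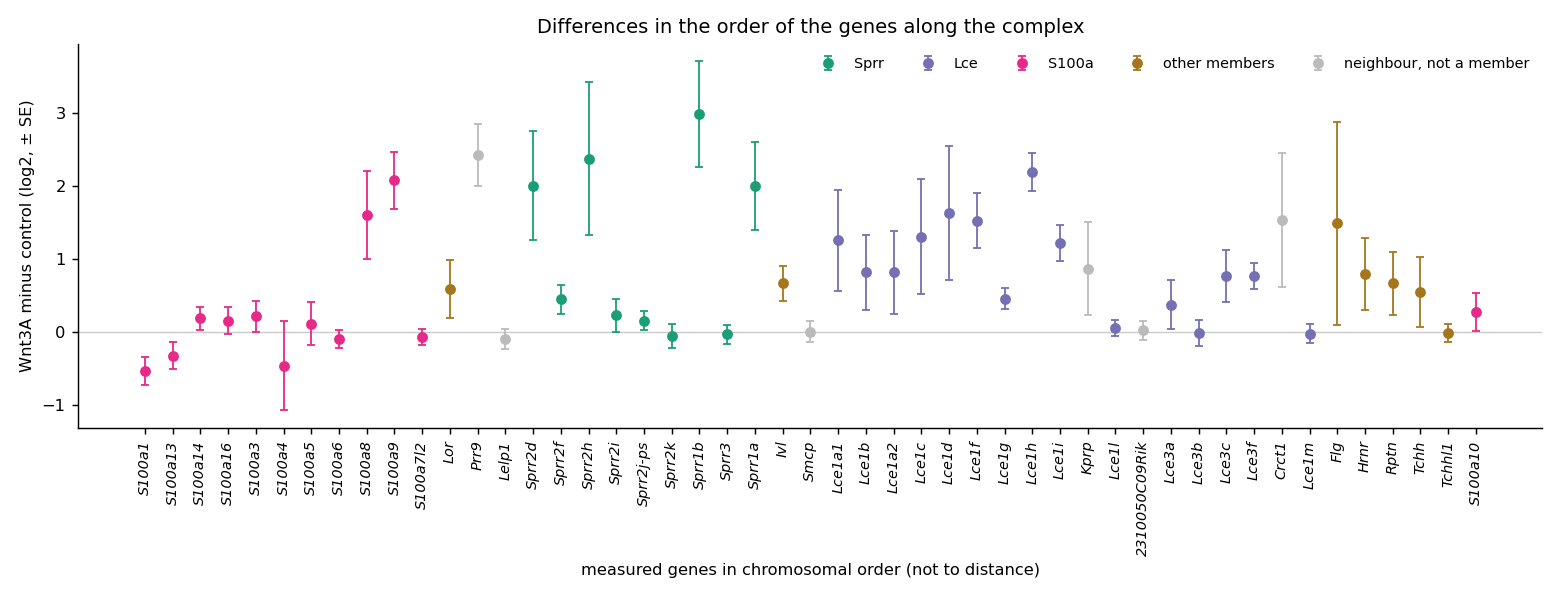
Wnt3A minus control (vertical axis, log2, with standard errors of the limma fit as bars) for the 43 members and 6 neighbouring genes in chromosomal order from left to right, coloured by subfamily. S100a9, Prr9, Sprr2d, Sprr2h, Sprr1b, Sprr1a and Lce1h stand at or above 2.00, with genes near 0 between them.

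Envelope and barrier genes outside the complex were also mostly highest in Wnt3A 2. Of 23 cross-linking enzymes, envelope scaffolds, suprabasal keratins and corneodesmosome genes, 13 were separated higher (56.5%, against 17.0% of all genes) and 0 lower (against 17.5%), with a median difference of 0.82. Limma called none at an adjusted p under 0.05, and 5 were higher at an unadjusted p under 0.05, as were 3.55% of all genes. Krt1 and Krt10, the suprabasal keratin pair, differed by 4.72 ± 1.78 and 3.14 ± 1.20. Without Wnt3A 2 they differed by 2.05 and 1.36, and without Wnt3A 1 by 7.39 and 4.93. Wnt3A 2 was the highest array for 19 of the 23 genes. The list medians were -0.41 and -0.08 in the controls, 0.08 in Wnt3A 1 and 0.97 in Wnt3A 2. Without Wnt3A 2 the median difference was 0.35.

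Of 28 measured transcription factors reported to act on the complex, 6 were separated higher (21.4%) and 3 lower (10.7%), beside 17.0% and 17.5% of all genes. Their median of 0.20 was 0.07 without control 1 and -0.06 without Wnt3A 2. None passed the limma threshold, and 3 were higher at an unadjusted p under 0.05, as were 3.55% of all genes. Grhl3, a grainyhead-like factor of the epidermal barrier, was at -0.70 and -0.56 in the controls and at 0.56 and 0.81 with Wnt3A (1.31 ± 0.15). Ovol1, a zinc finger repressor that acts as progenitors differentiate, differed by 1.09 ± 0.54, by 0.29 without Wnt3A 2 and by 1.88 without Wnt3A 1. The separated lower factors with the largest sizes were Jun (-0.40), an AP-1 subunit, and Arnt (-0.14). The other AP-1 subunits of the list, Fos, Fosl1, Fosl2, Junb and Jund, differed by -0.61, 0.77, 0.45, -0.03 and -0.20. Of these Fosl1 alone was separated, and it was higher with Wnt3A. Annexin partners and receptors of S100 proteins had a median of 0.10 over 9 genes, with 2 separated higher (22.2%) and 0 lower. S100b and S100g, which lie outside the complex, differed by -0.31 and 0.01.

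Basal markers had a median difference of 0.35 over 9 genes, which was -0.08 without control 1 and 0.61 without control 2. Of these 2 were separated higher (22.2%) and 0 lower, beside 17.0% and 17.5% of all genes. Luminal markers had a median of -0.51 over 8 genes, 0 separated higher and 4 lower (50.0%), and their median was 0.09 and 0.36 in the controls and -0.04 and -0.42 in Wnt3A 1 and Wnt3A 2. Fibroblast markers had a median of 0.09 over 8 genes and endothelial markers one of -0.02 over 5, and the sign of both medians turned when single arrays were left out. The part of these marker differences in the values of the complex was not tested.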

How the data were processed

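RNA of 4 mouse samples was hybridised to 1-colour Affymetrix arrays, 2 per group. Per the submitters' processing notes, RMA (version not given) made the deposited log2 values. No source used here names a centring step: every row's median over the arrays was 0 in the deposited log2 table, within 5e-07, so the values keep differences between arrays and hold no levels. The step size of the numbers fits a log2 scale. Column medians were 0.014, -0.016, 0.02 and -0.016 in control 1, control 2, Wnt3A 1 and Wnt3A 2.

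Of 45037 probe sets other than array controls, 34945 had 1 gene symbol in the platform annotation, 932 several and 9160 none. A gene was the mean of its single-symbol probe sets. No filter on low values was applied, so all 43 members were tested. Level bands (log2 8 to 16, 4 to 8, below 4) came from the precision of the stored numbers, a reading tested on simulated data. Of the members 15, 21 and 7 fell in these bands by their highest probe set, as did 9149, 7059 and 1985 of all genes.

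All genes were fitted by limma (version 3.58.1, R 4.3.3; moderated two-sided test, adjusted by Benjamini-Hochberg over 18193 genes, threshold 0.05, no covariate, 2 residual and 2.53 prior degrees of freedom). An exact permutation test of 2 against 2 arrays cannot go below a two-sided p of 0.33. The number of arrays limits the precision. The fit was tested on simulated data. Separated means that both Wnt3A arrays lie on the same side of both controls. The members and lists were chosen with earlier results of these data known. Any member could be named. From other lists the text names up to 2 separated genes with the largest positive and 2 with the largest negative differences. Axin2, Procr and cell type markers are named besides. Crct1, Kprp, Lelp1, Smcp, 2310050C09Rik, S100g, the AP-1 subunits other than Jun, and the AP-1 and TATA positions were singled out after values were seen.

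Promoters came from a RefSeq table of GRCm38.p6 and were aligned with Biopython 1.88. Alternatives were quantile normalization, array centring, a filter on the lowest band, the highest-band probe sets, robust moderation, a block for the replicate number, every probe set tested, and each array left out.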

Additional observations from a re-analysis of the deposited data

Results flagged for a closer look

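A probe set outside the gene table, which names S100a11 together with S100a11-ps and Gm12854, had both Wnt3A arrays above both controls. It was at -0.13 and -0.02 in the controls and at 0.16 and 0.02 with Wnt3A, a difference of 0.17 ± 0.13 log2 units. Over all probe sets 17.4% were separated higher.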

How the results depend on the processing

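No gene was called under any alternative that was run, and unadjusted p-values under 0.05 numbered 944 to 2275 over genes and 2801 over probe sets. Where an array was left out, the lone array of its group was assumed to vary like the other group. With 3 arrays, the count of separated higher members was 34 (79.1%) without Wnt3A 1, where 27.7% of all genes were so separated. Without Wnt3A 2 it was 22 (51.2%), where 39.1% of all genes were. It was 28 without control 1, beside 38.9% of all genes, and 25 without control 2, beside 28.3%. The median difference ran from 0.09 to 0.98 over all members, 0.26 to 0.68 for Sprr, 0.24 to 1.55 for Lce, 0.05 to 1.19 for the other members and -0.06 to 0.18 for S100a, which reversed without control 2 (-0.06) and without Wnt3A 2 (-0.01). With genes only in the lowest level band left out, the Sprr median was 1.22 over 8 genes, since Sprr2i was dropped. Leaving out 1 array turned the sign of 14 of the 43 members, a count for which the share of all genes was not computed. Of these, 7 had differences under 0.2 log2 units in size. Among the larger ones, S100a4 ran from -1.30 (without control 2) to 0.37 (without control 1), and S100a3 from -0.04 to 0.48 over the same 2 settings. From without Wnt3A 2 to without Wnt3A 1, Lce1a2 ran from -0.02 to 1.66, Lce3a from -0.10 to 0.86, Flg from -0.41 to 3.40, Tchh from -0.08 to 1.19 and Sprr2i from -0.04 to 0.50. Arrays of the same number deviated together over all genes (r = 0.44), but 2 pairs cannot establish pairing. With the replicate block 0 genes were called, 2275 had an unadjusted p under 0.05 and the median over members was 0.55. Within both numbers the Wnt3A array was the higher for 25 members (58.1%), against 29.5% of all genes. The count of separated members has no value under the block. Quantile normalization, run on the deposited differences from the row median, gave 20 members separated higher and 4 lower, and a median of 0.42. Under that setting 17.1% of all genes were separated higher.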
